A study of Homo sapiens with 12 samples.

Results

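Integrins are receptors built from 1 alpha and 1 beta subunit that anchor cells to the extracellular matrix, and laminins are basement membrane proteins built from 1 alpha, 1 beta and 1 gamma chain. The genes were taken by symbol: every row of the expression table named as an integrin alpha or beta subunit or as a laminin alpha, beta or gamma chain. This gave 38 genes of 26334 in the table, namely 18 integrin alpha subunits, 8 integrin beta subunits and 12 laminin chains. The rule used no measured value, but the members were chosen with earlier results of these data known.

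Transcripts were measured by poly(A) RNA sequencing in HK-2, a human renal proximal tubular epithelial cell line. In every group the cells carried a doxycycline (Dox)-inducible PRCC-TFE3 gene, a fusion with the transcription factor TFE3 found in translocation renal cell carcinoma. The treatments lasted 48 h and were vehicle (DMSO), Dox, the CDK8 and CDK19 inhibitor MSC2530818 at 100 nM, or Dox and the inhibitor, and each group had 3 libraries described as independent biological replicates. The culture medium contained puromycin and blasticidin S in all groups. Whether the line is 1 clone is not given in the sources used here, and no group received Dox without carrying the fusion gene, and the fusion's effects cannot be told apart from those of the drug.

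Epithelial cells read the basement membrane mainly through integrins. Subunit beta 1 pairs with most alpha subunits, alpha v pairs with several beta subunits and binds fibronectin, vitronectin and latent TGF-beta, and alpha 3 beta 1, alpha 6 beta 1 and alpha 6 beta 4 bind laminins. Laminin trimers that hold alpha 5 are the main ones of the mature tubule basement membrane, whereas the alpha 3 and beta 3 chains (LAMA3 and LAMB3) belong to a trimer that anchors skin and other stratified epithelia and is known from migrating and injured epithelia.

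Values are FPKM, a fragment measure corrected for transcript length and library total, which allows levels of different genes to be compared. FPKM sums ran from 429208 to 473950 per library, and absolute depth is unknown. TFE3 averaged 35.8 ± 3.07 FPKM without and 149.7 ± 4.0 with Dox in cells free of inhibitor, and 27.8 ± 1.75 and 84.2 ± 3.05 without and with Dox in the presence of the inhibitor (SD, n = 3). Of 12 proximal tubule markers 4 reached 1 FPKM in some library, while the defining genes LRP2, CUBN and SLC34A1 stayed at or below 0.09. Of 9 renal epithelial markers 7 reached it, with PAX8 at 81.6 to 134.9 and EPCAM at 44.9 to 54.2 FPKM. CDH1 and PAX2 did not, with highest values of 0.01 and 0.05 FPKM. Leukocyte markers summed to 0.2 to 1.99 FPKM and endothelial markers to 0.02 to 0.19 per library.

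Of the 38 genes, 24 were tested, having 3 or more of the 12 libraries at 1 FPKM or above: 8 alpha subunits, 7 beta subunits and 9 laminin chains. The other 14 were ITGA2, ITGA2B, ITGA7, ITGA8, ITGA9, ITGA10, ITGA11, ITGAD, ITGAL, ITGAM, ITGB7, LAMA2, LAMA4 and LAMB4. Their highest single value was 0.79 FPKM (ITGA2B, the platelet alpha subunit), and ITGA8 was listed at 0 in all 12 libraries. Changes are differences in log2(FPKM + 1) with their SE, and this scale makes those of low genes look smaller. A gene is called when its Benjamini-Hochberg adjusted p, over all 12649 tested genes in 1 limma model of the 12 libraries, is under 0.05.

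In vehicle the most abundant member was ITGB1, the shared beta 1 subunit, at 289.8 ± 51.2 FPKM (SD, n = 3). ITGA3 (123.1 ± 10.5), ITGB3 (116.6 ± 7.47) and ITGAV (111.7 ± 20.1) followed, and neighbours in this order overlapped between libraries, as did ITGAV and the laminin chain LAMB1 (97.7 ± 2.07). LAMC1 (65.9) lay apart from LAMA5 (50.4), which overlapped ITGB5 (43.6). ITGA5 stood at 30.5, LAMB2 at 20.3, and LAMC3 (16.0), ITGB8 (12.97), LAMB3 (10.4) and ITGB6 (9.62) formed a run in which neighbours overlapped. LAMA3 (7.78), ITGA6 (6.43), ITGB2 (4.94), ITGAE (4.36) and LAMA1 (3.66) lay lower. ITGB4 (2.56), ITGA4 (1.95), ITGA1 (1.34) and ITGAX (0.647) closed the order. The laminin alpha chains present were thus led by LAMA5 and the beta chains by LAMB1, and LAMC1 stood above LAMC3.

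**Figure D1:**
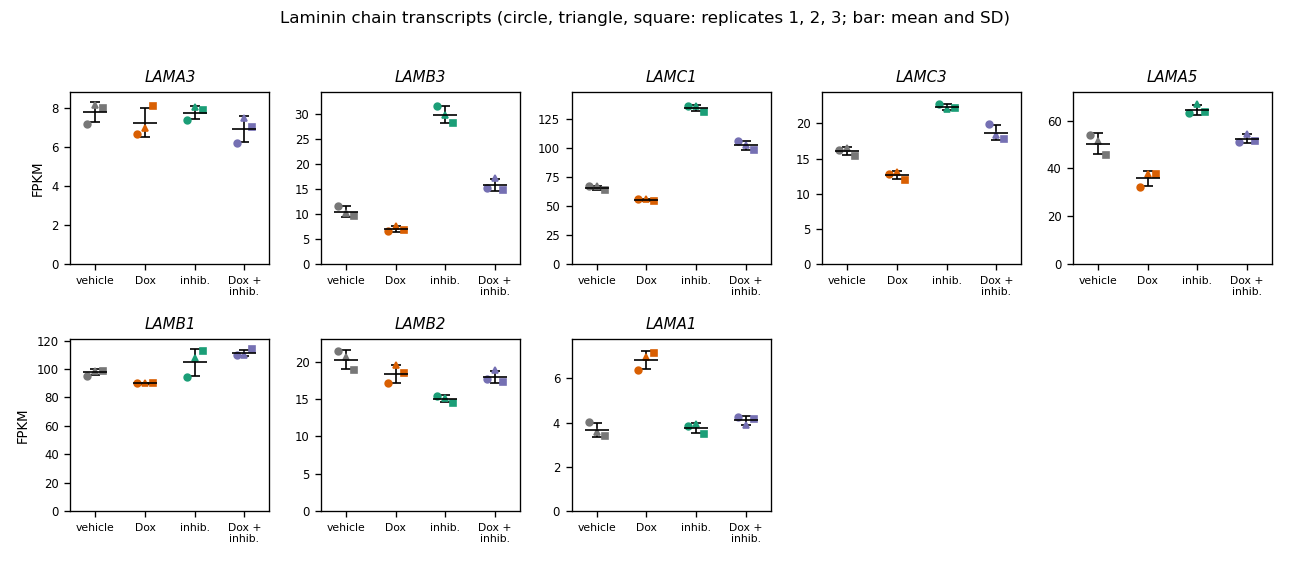
FPKM of 8 tested laminin chains in the 12 libraries; the vertical axis of each panel is FPKM from 0, points are libraries, and bars are the mean and SD of 3. LAMB3 stands at 28.23 to 31.62 with the inhibitor and at 6.52 to 7.56 with Dox, and LAMA3 lies between 6.2 and 8.15 in all 12 libraries.

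LAMB3, the beta 3 chain (chromosome 1, 209614870 to 209652466, minus strand, GRCh38), fell with Dox and rose with the inhibitor. It measured 11.63, 10.15 and 9.51 FPKM in vehicle, 6.52, 7.56 and 6.84 with Dox, 31.62, 29.89 and 28.23 with the inhibitor, and 15.32, 17.25 and 14.86 with both agents. The 4 groups did not overlap, with Dox alone lowest and the inhibitor alone highest. The inhibitor raised it by 1.44 ± 0.08 without Dox (limma adjusted p = 3.86e-07) and 1.08 ± 0.08 with it (3.89e-06), and Dox lowered it by 0.52 ± 0.08 (adjusted p = 0.00152) and, with the inhibitor, by 0.88 ± 0.08 (7.92e-05).

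LAMA3, the alpha chain that joins beta 3 (chromosome 18, 23689443 to 23956222, plus strand), was called in none of the comparisons. It stood at 7.78 ± 0.52 FPKM in vehicle, 7.24 ± 0.75 with Dox, 7.76 ± 0.35 with the inhibitor and 6.91 ± 0.65 with both (SD, n = 3), and the groups overlapped. For the inhibitor without Dox its change was -0.0035, with a 95% interval from -0.19 to 0.18, which leaves out changes as large as that of LAMB3.

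The 250 bases before the start of transcription are shown for LAMA3, LAMB3 and LAMC1, since LAMB3 and LAMC1 rose together with the inhibitor while LAMA3 did not. RefSeq promoters (GRCh38.p14, first listed start of each gene) matched 26 of the 38 members. Capitals mark matches to TGANTCA, the AP-1 motif; the E-box CACGTG, which TFE3 and its relatives bind, and the TEAD motif GGAATG were searched on both strands in the same windows. LAMA3 is taken at chr18:23872770-23873019 (plus strand), an internal start, LAMB3 at chr1:209652426-209652675 (minus strand) and LAMC1 at chr1:183023170-183023419 (plus strand).
LAMA3: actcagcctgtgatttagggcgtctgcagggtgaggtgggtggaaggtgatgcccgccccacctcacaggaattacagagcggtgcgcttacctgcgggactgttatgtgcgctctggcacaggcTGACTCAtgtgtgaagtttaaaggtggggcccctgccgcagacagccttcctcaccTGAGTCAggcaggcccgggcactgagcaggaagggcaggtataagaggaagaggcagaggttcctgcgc
LAMB3: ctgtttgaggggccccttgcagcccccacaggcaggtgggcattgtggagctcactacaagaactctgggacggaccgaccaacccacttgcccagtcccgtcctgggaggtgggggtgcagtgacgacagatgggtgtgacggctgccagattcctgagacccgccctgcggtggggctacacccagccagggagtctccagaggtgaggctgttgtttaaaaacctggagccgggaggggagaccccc
LAMC1: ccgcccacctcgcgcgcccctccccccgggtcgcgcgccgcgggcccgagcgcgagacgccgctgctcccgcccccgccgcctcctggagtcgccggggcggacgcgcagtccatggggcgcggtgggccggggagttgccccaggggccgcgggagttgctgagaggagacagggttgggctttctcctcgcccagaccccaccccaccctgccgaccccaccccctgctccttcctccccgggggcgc
LAMA3 held 2 matches to TGANTCA, beginning 125 and 69 bases before the start, while the LAMB3 and LAMC1 windows held none of the 3 motifs. GC content was 60.4% for LAMA3, 64% for LAMB3 and 79.6% for LAMC1. Over the 26 members, TGANTCA was found in 1 (LAMA3) against 6.6% of 27305 promoters, CACGTG in 1 (ITGA6) against 6.49%, and GGAATG in 4 (ITGA5, ITGA10, ITGB1 and LAMA2) against 11.9%. None of these motifs overlapped in a member. A match describes letters in this window and was not tested for binding.

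LAMC1, the gamma 1 chain of most laminins, is encoded on chromosome 1 (183023460 to 183145592, plus strand). Its libraries measured 66.89, 66.86 and 63.88 FPKM in vehicle, 55.82, 55.61 and 54.47 with Dox, 136.09, 136.15 and 131.11 with the inhibitor and 106.13, 102.85 and 98.24 with both. The 4 groups did not overlap. The inhibitor raised LAMC1 2.04-fold (1.02 ± 0.05, limma adjusted p = 5.59e-08) and 1.85-fold with Dox (0.88 ± 0.05, adjusted p = 1.43e-07), and Dox lowered it by 0.25 ± 0.05 (adjusted p = 0.00301) and by 0.39 ± 0.05 with the inhibitor (adjusted p = 2.66e-04).

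LAMA5, the alpha 5 chain (chromosome 20, 62307955 to 62367312, minus strand), followed with smaller changes. It measured 54.02, 51.42 and 45.63 FPKM in vehicle, 32.31, 37.73 and 37.75 with Dox, 63.1, 66.97 and 63.66 with the inhibitor, and 51.19, 54.51 and 51.57 with both. Only the vehicle group and the group with both agents overlapped. Dox lowered it (-0.48 ± 0.08, limma adjusted p = 0.00122; with the inhibitor -0.3 ± 0.08, adjusted p = 0.0215) and the inhibitor raised it (0.36 ± 0.08, adjusted p = 0.00339; with Dox 0.54 ± 0.08, adjusted p = 2.82e-04). The Dox call with the inhibitor ended without any one of inhibitor library 2 and Dox plus inhibitor libraries 1 and 3 (-0.28 to -0.27).

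LAMC3, the gamma 3 chain, measured 16.17, 16.52 and 15.38 FPKM in vehicle, 12.8, 13.06 and 12.01 with Dox, 22.81, 22.03 and 22.24 with the inhibitor, and 19.91, 18.33 and 17.8 with both. The 4 groups did not overlap. It was lower with Dox (-0.32 and, with the inhibitor, -0.25, limma adjusted p = 0.00249 and 0.0135) and higher with the inhibitor (0.46 and, with Dox, 0.53, adjusted p = 1.04e-04 and 4e-05). Its Dox call with the inhibitor ended without Dox plus inhibitor library 2 (-0.24) or 3 (-0.22), and with only the 2 groups compared in the fit (adjusted p = 0.0552).

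LAMB1, the beta 1 chain and the most abundant laminin chain in vehicle, moved least among the abundant ones. It measured 95.34, 98.94 and 98.92 FPKM in vehicle, 89.95, 90.39 and 89.92 with Dox, 94.1, 107.52 and 112.58 with the inhibitor, and 110.26, 109.93 and 114.02 with both. It was called for the inhibitor with Dox (0.3 ± 0.06, limma adjusted p = 0.00294) and in no other comparison. LAMB2, the beta 2 chain, measured 21.42, 20.61 and 18.85 FPKM in vehicle, 17.14, 19.52 and 18.43 with Dox, 15.46, 15.08 and 14.53 with the inhibitor, and 17.63, 18.83 and 17.3 with both. The inhibitor libraries lay below all others. It was the 1 laminin that fell with the inhibitor without Dox (-0.41 ± 0.07, limma adjusted p = 5.86e-04), and with Dox the difference was -0.03 ± 0.07 (adjusted p = 0.747). It was called as higher for Dox with the inhibitor (0.24, limma adjusted p = 0.0286). That call was lost with median-ratio scaling (0.16), with quantile-normalized values (0.16), with only the groups compared (adjusted p = 0.0582) and without any one of inhibitor libraries 2 and 3 or Dox plus inhibitor libraries 1 to 3 (0.2 to 0.26).

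LAMA1, the alpha 1 chain of early epithelial basement membranes (chromosome 18, 6941744 to 7117814, minus strand), went the other way from LAMA5. Its libraries measured 4.03, 3.55 and 3.39 FPKM in vehicle, 6.35, 6.94 and 7.13 with Dox, 3.83, 3.95 and 3.48 with the inhibitor, and 4.27, 3.88 and 4.18 with both. The Dox libraries lay above all others, and the other 3 groups lay between 3.39 and 4.27. Dox raised it 1.86-fold (0.75 ± 0.07, limma adjusted p = 4.85e-05). When the inhibitor was present, Dox gave a difference of 0.1 ± 0.07 (adjusted p = 0.323), and the inhibitor lowered LAMA1 in cells with Dox (-0.61 ± 0.07, adjusted p = 1.05e-04). The annotation lists an antisense gene that shares 1641 exon bases with LAMA1, and the counting of strands is not given in the sources used here.

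In counts, Dox lowered 5 of the 9 tested laminin chains and raised 1, both without and with the inhibitor. The median change was -0.25 in each case, against 0.04 and 0.08 over all tested genes. Over 11871 genes the Dox change ran against transcript GC content (rank correlation -0.388 without and -0.564 with the inhibitor). For the inhibitor it was 0.228 without and 0.09 with Dox. Transcript GC content was 65.3% for LAMA5, 63.5% for LAMC3, 59.5% for LAMB3, 50.1% for LAMA1 and 47.6% for LAMC1. Its part in these medians was not tested. The inhibitor raised 5 and lowered 1 without Dox (median 0.36, all genes -0.12), and raised 6 and lowered 1 with Dox (median 0.53, all genes -0.08). Over all tested genes, 17.9% were called for Dox without inhibitor (10.6% higher and 7.31% lower), and 18.2% for Dox with it (12.2% and 6.06%). For the inhibitor 38% were called without Dox (11.7% higher and 26.3% lower) and 32.1% with Dox (11.3% and 20.8%). Of the called genes, 59.2%, 66.7%, 30.8% and 35.3% were higher in these 4 comparisons, and 44.9%, 37.1%, 54.6% and 53.1% after median-ratio scaling of the libraries. The summed level of renal epithelial markers moved with the same groups. It was 700.3 to 816 FPKM in vehicle, 564 to 592 with Dox, 861 to 996 with the inhibitor and 675 to 723 with both. Keratins weighed most in it (KRT8 at 295.2 and KRT18 at 209.3 FPKM in vehicle). The markers did not all rise with the inhibitor without Dox: EPCAM went from 51.4 to 49.7 FPKM and CDH16 from 2.66 to 2.44. Fibroblast markers, 2 of 5 of which reached 1 FPKM, summed to 6.17 to 6.79, 10.63 to 11.97, 4.76 to 7.08 and 5.61 to 7.02 in the same order. From vehicle to Dox, LUM went from 2.17 to 7.48 FPKM while COL1A1 went from 4.33 to 3.75. Proximal tubule markers did not fall with Dox as a sum. They summed to 56.99 to 59, 60.51 to 66.65, 60.18 to 62.65 and 55.95 to 60.44 FPKM in the same order. For Dox without inhibitor, MME (0.69) and GGT1 (0.28) were called as higher and CDH6 (-0.88) as lower. The part of these markers in the laminin values was not tested. In bulk samples, fewer cells of a type and less RNA per cell cannot be told apart.

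**Figure D2:**
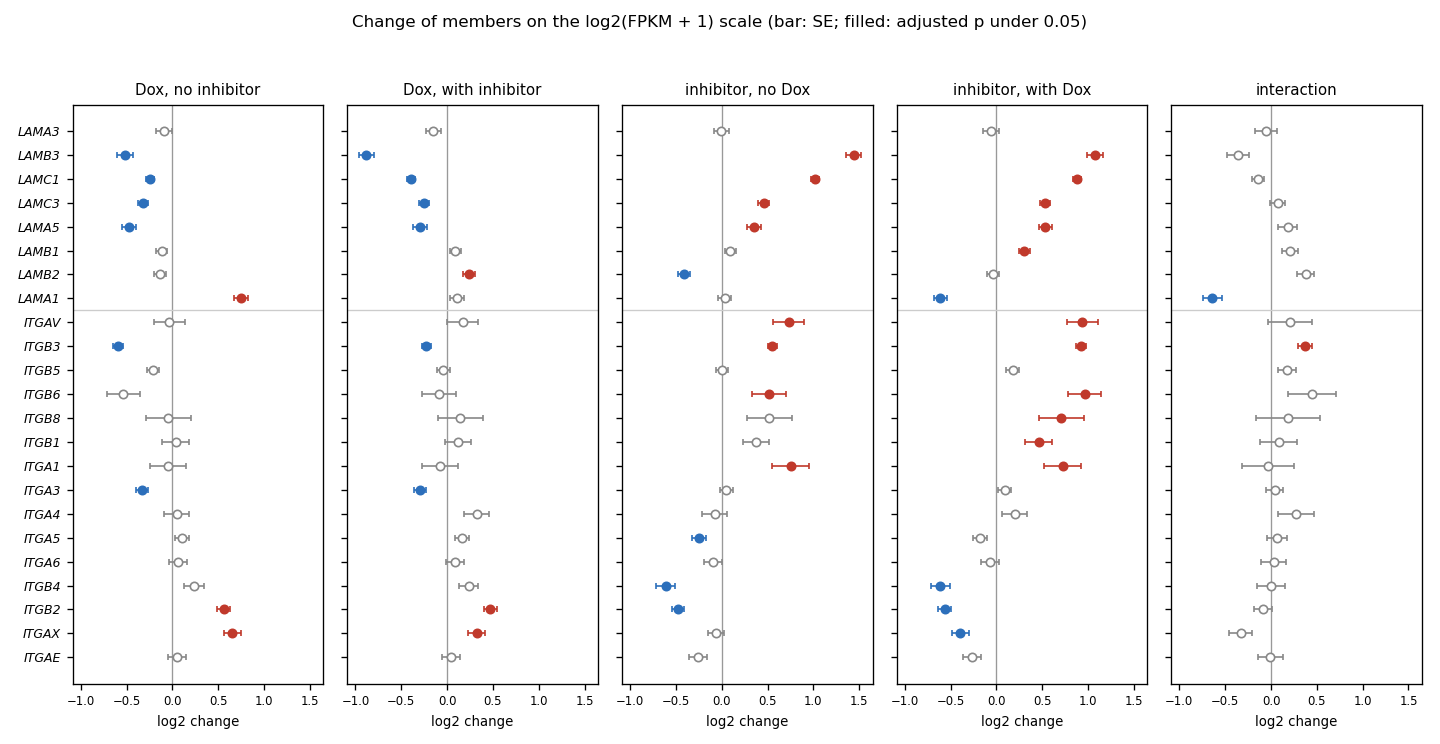
Change of 23 tested members (rows, laminin chains above the line and integrin subunits below) in the 4 comparisons and the interaction; the horizontal axis is the difference in log2(FPKM + 1), bars are SE, and filled points are called, red for higher and blue for lower. LAMB3 spans from -0.88 for Dox with the inhibitor to 1.44 for the inhibitor without Dox, and the filled points of the interaction panel are LAMA1 and ITGB3.

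Among integrins, alpha v and several of its beta partners were higher with the inhibitor. ITGAV, the alpha v subunit (chromosome 2, 186590065 to 186680901, plus strand), measured 90.59, 113.75 and 130.71 FPKM in vehicle, 103.26, 105.78 and 114.57 with Dox, 141.31, 200.82 and 219.6 with the inhibitor, and 175.02, 221.04 and 229.8 with both. All 6 libraries with the inhibitor lay above all 6 without it. The inhibitor raised ITGAV 1.68-fold without Dox (0.73 ± 0.17, limma adjusted p = 0.00599) and 1.93-fold with Dox (0.94 ± 0.17, adjusted p = 0.00164). Dox changed it by -0.04 ± 0.17 without and 0.17 ± 0.17 with the inhibitor (adjusted p = 0.9 and 0.488). With a length and GC trend removed from the values these became -0.29 (limma adjusted p = 3.45e-04) and -0.16 (adjusted p = 0.0252), both called as lower.

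ITGB3, the beta 3 subunit, forms the vitronectin receptor with alpha v (chromosome 17, 47253846 to 47311816, plus strand) and was the third most abundant member in vehicle. Its libraries measured 124.69, 115.3 and 109.94 FPKM in vehicle, 76.26, 78.65 and 75.63 with Dox, 176.84, 169.54 and 168.07 with the inhibitor, and 149.83, 146.76 and 143.16 with both. The 4 groups were separate. The inhibitor raised it by 0.55 ± 0.05 (limma adjusted p = 1.37e-05) and with Dox by 0.92 ± 0.05 (adjusted p = 3.14e-07). Dox lowered it by 0.59 ± 0.05 (limma adjusted p = 1.97e-05) and with the inhibitor by 0.22 ± 0.05 (adjusted p = 0.0146), a call that ended without Dox plus inhibitor library 3 (-0.21). The annotation holds a second gene on the same strand that shares 2266 exon bases with ITGB3, so fragments may be divided between them.

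ITGB6, the beta 6 subunit of epithelia, which with alpha v activates latent TGF-beta, measured 8.21, 9.86 and 10.8 FPKM in vehicle, 5.41, 6.75 and 6.8 with Dox, 10.47, 15.3 and 17.39 with the inhibitor, and 10.4, 15.36 and 14.37 with both. All libraries with Dox alone lay below all others. The inhibitor raised it in the presence of Dox (0.96 ± 0.18, limma adjusted p = 0.00209). Without Dox it was called at 0.51 ± 0.18 (limma adjusted p = 0.0447) although libraries overlapped. That call ended with no filter, with only the groups compared, and without any one of 8 libraries: vehicle 1 or 2, any Dox library, inhibitor 2 or 3, or library 3 of both agents (0.37 to 0.53). For Dox without inhibitor the change was -0.54 ± 0.18 (limma adjusted p = 0.0654).

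ITGB8, the beta 8 subunit, which also partners alpha v and activates TGF-beta, measured 9.44, 13.62 and 15.85 FPKM in vehicle, 11.18, 12.36 and 13.36 with Dox, 12.64, 21.01 and 24.31 with the inhibitor, and 15.32, 22.85 and 25.21 with both. The libraries with both agents lay above those with Dox, and other groups overlapped. It was called for the inhibitor with Dox (0.71 ± 0.25, limma adjusted p = 0.0462). This call ended with no filter and without any one of vehicle library 2, the 3 Dox libraries, inhibitor library 2, or library 2 or 3 of both agents (0.57 to 0.77). ITGB5, the beta 5 subunit, stood at 43.6 ± 3.13 in vehicle, 37.4 ± 2.04 with Dox, 43.7 ± 2.74 with the inhibitor and 42.4 ± 1.86 with both, and was not called. Its change for Dox was -0.21 ± 0.07 (limma adjusted p = 0.0529), and for the inhibitor without Dox 0.0033, with a 95% interval from -0.15 to 0.15. The ratio of ITGB3 to ITGB5 within a library was 2.65 to 2.7 in vehicle, 1.98 to 2.12 with Dox, 3.79 to 4.07 with the inhibitor and 3.37 to 3.52 with both.

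ITGB1 (chromosome 10, 32900319 to 33005792, minus strand) measured 233.01, 303.99 and 332.45 FPKM in vehicle, 293.45, 286.31 and 301.22 with Dox, 298.65, 401.08 and 432.52 with the inhibitor and 375.14, 418.9 and 420.21 with both. It was called for the inhibitor with Dox (0.46 ± 0.14, limma adjusted p = 0.0295) and stood at 0.38 ± 0.14 without Dox (adjusted p = 0.0571). With no filter or with quantile-normalized values (0.4) the call was lost, and also when any one of Dox libraries 1 to 3 or Dox plus inhibitor libraries 2 or 3 was dropped (0.43 to 0.48).

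**Figure D3:**
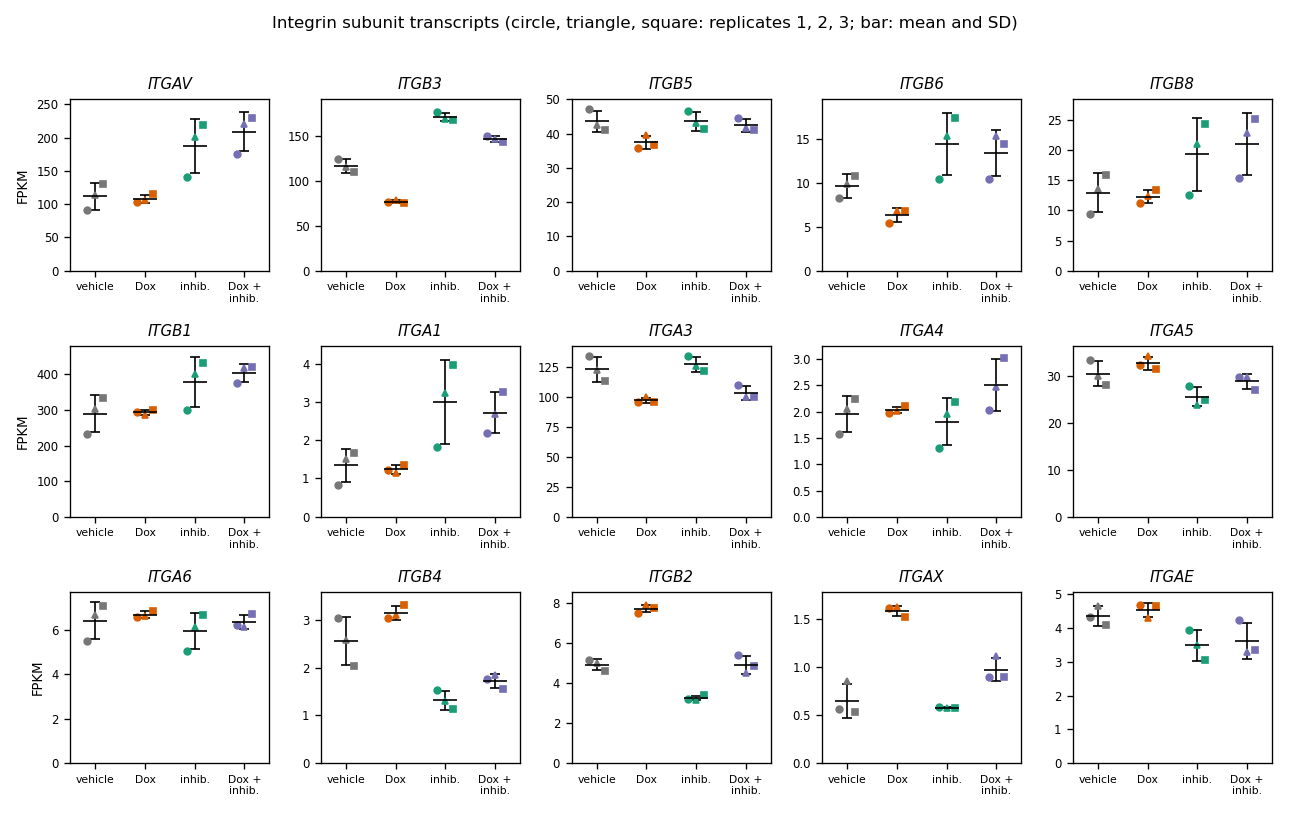
FPKM of the 15 tested integrin subunits in the 12 libraries; the vertical axis of each panel is FPKM from 0, points are libraries (circle, triangle and square for replicates 1, 2 and 3), and bars are the mean and SD of 3. ITGB3 is at 75.63 to 78.65 with Dox and 168.07 to 176.84 with the inhibitor, and replicate 1 is the lowest point of its group for ITGAV, ITGB6 and ITGB8 in all 4 groups.

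The alpha partners of beta 1 did not move as 1 set. ITGA3, the main laminin-binding alpha subunit here (chromosome 17, 50055968 to 50090481, plus strand), measured 134.03, 122.24 and 113.11 FPKM in vehicle, 95.89, 99.69 and 96.08 with Dox, 134.28, 126.35 and 121.79 with the inhibitor and 110.17, 100.35 and 100.35 with both. All 6 libraries with Dox lay below all 6 without it. Dox lowered it by 0.33 ± 0.07 (limma adjusted p = 0.0054) and with the inhibitor by 0.3 ± 0.07 (adjusted p = 0.0129), the latter a call that ended without Dox plus inhibitor library 2 or 3 (-0.27 each). The inhibitor changed it by 0.05 ± 0.07 and 0.09 ± 0.07 (adjusted p = 0.573 and 0.348).

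ITGA1, a collagen receptor subunit, measured 0.84, 1.51 and 1.67 FPKM in vehicle, 1.21, 1.14 and 1.36 with Dox, 1.82, 3.22 and 3.97 with the inhibitor and 2.2, 2.69 and 3.26 with both. All libraries with the inhibitor lay above all without it. It rose by 0.75 ± 0.2 (limma adjusted p = 0.0123) and with Dox by 0.72 ± 0.2 (adjusted p = 0.0173). The first call ended with only the groups compared (adjusted p = 0.0568), and the second without Dox library 1 or 2 (0.72 and 0.69) or Dox plus inhibitor library 3 (0.62). PELO, a gene on the same strand, shares 475 exon bases with ITGA1.

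ITGA5, the fibronectin receptor subunit, measured 33.38, 30.04 and 28.18 FPKM in vehicle, 32.31, 34.29 and 31.61 with Dox, 27.94, 23.94 and 25.03 with the inhibitor, and 29.76, 29.76 and 27.14 with both. The inhibitor libraries lay below those of vehicle. It was called as lower for the inhibitor without Dox (-0.24 ± 0.08, limma adjusted p = 0.0263). The call ended under median-ratio scaling (-0.13), quantile normalization (-0.15), with only the groups compared, and without any one of vehicle libraries 1 or 2 or inhibitor libraries 2 or 3 (-0.25 to -0.18). ITGA4, a subunit that binds fibronectin and VCAM1, lay between 1.31 and 3.02 FPKM and ITGA6, a laminin receptor subunit, between 5.06 and 7.11. Neither was called in any comparison.

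ITGB4, the beta 4 subunit that pairs with alpha 6 in hemidesmosomes (chromosome 17, 75721328 to 75757818, plus strand), fell with the inhibitor while LAMB3, a chain of its laminin ligand, rose. It measured 3.06, 2.58 and 2.05 FPKM in vehicle, 3.05, 3.11 and 3.32 with Dox, 1.53, 1.3 and 1.13 with the inhibitor and 1.76, 1.86 and 1.56 with both. All libraries with the inhibitor lay below all without it. The fall was to 0.515 of the vehicle mean (-0.61 ± 0.11, limma adjusted p = 0.00104) and to 0.546 of the Dox mean (-0.61 ± 0.11, adjusted p = 0.00126).

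ITGB2, the beta 2 subunit best known from leukocytes (chromosome 21, 44885953 to 44931989, minus strand), measured 5.15, 5.03 and 4.63 FPKM in vehicle, 7.54, 7.92 and 7.77 with Dox, 3.21, 3.18 and 3.4 with the inhibitor and 5.41, 4.52 and 4.84 with both. The vehicle group and the group with both agents overlapped, Dox lay above them and the inhibitor below. Dox raised it 1.57-fold (0.56 ± 0.07, limma adjusted p = 2.06e-04) and 1.51-fold with the inhibitor (0.47 ± 0.07, adjusted p = 0.0012), and the inhibitor lowered it by 0.48 ± 0.07 (adjusted p = 2.91e-04) and 0.56 ± 0.07 (1.02e-04). The antisense gene ITGB2-AS1, which shares 303 exon bases with ITGB2, stood close to it in each group, at 4.95 ± 0.45, 7.53 ± 0.32, 3.43 ± 0.32 and 4.37 ± 0.16 FPKM in the same order of groups (SD, n = 3). How strands were counted is not given in the sources used here, so fragments of the 2 genes may not be fully separated.

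ITGAX, the alpha X subunit, lay at 0.56, 0.85 and 0.53 FPKM in vehicle, 1.61, 1.62 and 1.52 with Dox, 0.58, 0.57 and 0.57 with the inhibitor and 0.9, 1.11 and 0.9 with both. Only the Dox libraries and 1 other reached 1 FPKM. Dox raised it (0.65 ± 0.09, limma adjusted p = 4.93e-04) and the inhibitor lowered it in the presence of Dox (-0.39 ± 0.09, adjusted p = 0.00671; adjusted p = 0.0689 without replicate 1 of all groups). The call for Dox with the inhibitor (0.32 ± 0.09, limma adjusted p = 0.0321) was lost with quantile-normalized values (0.2), with only the groups compared, without replicate 1 of all groups, and on dropping any one of inhibitor libraries 1 to 3 or Dox plus inhibitor libraries 2 or 3 (0.27 to 0.35). ITGAX passed the filter on low values through its Dox libraries. ITGAE, the alpha E subunit of intraepithelial lymphocytes, stood at 3.04 to 4.68 FPKM and was not called, and ITGAM, ITGAL and ITGAD, which share beta 2, reached at most 0.33. Leukocyte markers were near 0: MS4A1 was listed at 0 in all libraries and PTPRC reached 0.02. Their summed level was 0.37 to 0.98 FPKM in vehicle, 1.0 to 1.99 with Dox, 0.28 to 0.44 with the inhibitor and 0.2 to 0.81 with both. FCER1G was the 1 of these 10 markers to reach 1 FPKM (highest value 1.38).

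In counts, Dox raised 2 and lowered 2 of the 15 tested integrin subunits without the inhibitor, and likewise 2 and 2 with it (medians 0.03 and 0.12), where 17.9% and 18.2% of all tested genes were called. The raised subunits include ITGAX, which passed the filter through its Dox libraries, so its call for Dox is not independent of the filter. The inhibitor raised 4 and lowered 3 without Dox (median 0.0033) and raised 6 and lowered 3 with Dox (median 0.18), where 38% and 32.1% of all tested genes were called. Over all 24 tested members, 10 were called for Dox without the inhibitor, 10 with it, 13 for the inhibitor without Dox and 16 with Dox. The count for Dox with the inhibitor was 4 without Dox plus inhibitor library 3 and 6 without library 2. ITGA4, ITGA6, ITGAE, ITGB5 and LAMA3 were called in none of these fits. For Dox with the inhibitor, where same-numbered libraries deviated together, the fit with the replicate block also called ITGA4 as higher (0.32, limma adjusted p = 0.021). Over all genes that fit called 4548 against 2304. Same-numbered libraries of vehicle and inhibitor also deviated together, and there the block added ITGAE as lower and ITGB1 and ITGB8 as higher. With the length and GC trend removed, ITGA1, ITGAV, ITGB4, ITGB5 and ITGB6 were called for Dox in addition (ITGB4 higher, the others lower). For Dox with the inhibitor, ITGA5 and ITGB4 were then called as higher and ITGA1, ITGA6, ITGAV, ITGB6 and LAMA3 as lower. Each Dox comparison shares groups with both inhibitor comparisons, so these counts are not independent.

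The interaction asks whether the Dox change differed with and without the inhibitor, and 3 of the 24 members were called (1 higher and 2 lower), against 2.82% of all tested genes (0.909% higher and 1.91% lower). For LAMA1 the rise with Dox was smaller with the inhibitor (0.1 against 0.75, difference -0.64 ± 0.11, limma adjusted p = 0.00742). For ITGB3 the fall with Dox was smaller with the inhibitor (-0.22 against -0.59, difference 0.37 ± 0.07, limma adjusted p = 0.0224). The ITGB3 call ended without any one of 8 libraries, namely vehicle 2, any Dox library, inhibitor 2 or 3, or library 1 or 2 of both agents (0.35 to 0.39). For LAMB2 the difference was 0.38 ± 0.09 (limma adjusted p = 0.0572) and for LAMB3 -0.36 ± 0.12 (adjusted p = 0.168). TFE3 itself rose less with the inhibitor (interaction -0.47 ± 0.1, limma adjusted p = 0.0229), and its part in these differences was not tested.

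Replicate 1 stood apart for the members with AT-rich transcripts. Among the 7 members whose transcripts had under 45% GC (ITGA1, ITGA4, ITGA6, ITGAV, ITGB1, ITGB6 and ITGB8), the deviation of replicate 1 from its group mean, averaged over the 4 groups, was negative for all 7, from -0.36 to -0.11 on the log2 scale. Among the other 17 members it was negative for 4 and ran from -0.1 to 0.09. The 45% limit was set after these values were seen. The rank correlation with GC content was 0.668 over the 24 members and 0.651 over 11871 genes, all read in the same 12 libraries. The SE of these 7 members was 0.1 to 0.25 in the 4 comparisons, against 0.05 to 0.11 for the other 17. Leaving out replicate 1 of all groups kept all calls of the members in the 4 comparisons and the interaction, other than 2 of ITGAX.

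**Figure D4:**
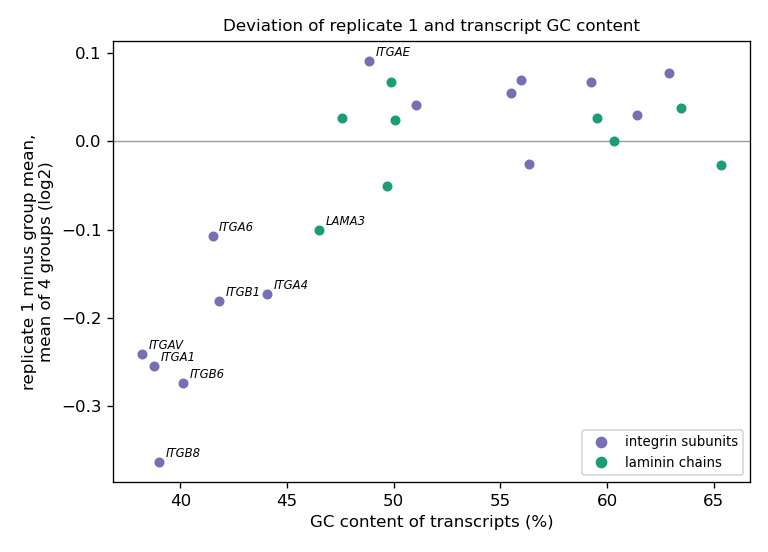
Deviation of replicate 1 from its group mean, averaged over the 4 groups (vertical axis, log2), against the median GC content of each member's annotated transcripts (horizontal axis, percent); each point is 1 of the 24 tested members. The 7 members under 45% GC lie from -0.36 to -0.11, and the other 17 from -0.1 to 0.09.

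Genes that work with these receptors were counted from lists compiled from general knowledge. Of 22 tested genes for integrin ligands and other basement membrane proteins, the inhibitor raised 15 and lowered 1 without Dox (median 0.32) and raised 13 and lowered 1 with Dox (median 0.35), where 38% and 32.1% of all tested genes were called. The largest changes without Dox were those of SPP1 (osteopontin, 228.7 to 636.5 FPKM, 1.46), TNC (tenascin C, 1.69 to 6.24, 1.43) and FN1 (fibronectin, 2647 to 6161, 1.22), all ligands of alpha v or beta 1 integrins. With Dox they were TNC (1.64), CTGF (1.46) and the laminin-binding netrin NTN4 (1.16). Dox lowered 10 and raised 4 of the 22 without the inhibitor (median -0.21), where 17.9% of all tested genes were called. The matrix proteins THBS1 (-1.08), CTGF (-0.89) and the nephronectin gene NPNT (-0.73) changed most. With the inhibitor Dox lowered 7 and raised 1 (median -0.12), where 18.2% of all tested genes were called. FN1 was at -0.86, the basement membrane collagen gene COL4A5 at 0.66 and FBLN1 at -0.58. For the interaction 4 were called as higher and 1 as lower, against 2.82% of all tested genes called. THBS1 (0.87), CTGF (0.8) and NTN4 (0.55) led.

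Of 26 tested focal adhesion genes, the inhibitor raised 14 and lowered 2 without Dox (median 0.27) and raised 18 and lowered 2 with Dox (median 0.3), where 38% and 32.1% of all tested genes were called. LIMS2 (1.15 and 1.4), the actin cross-linker ACTN1 (1.09 and 1.19) and the paxillin relative TGFB1I1 (0.98 and 1.41) changed most in each. Dox lowered 11 and raised 1 without the inhibitor (median -0.13), where 17.9% of all tested genes were called. TGFB1I1 (-0.58), VASP (-0.54) and LIMS2 (-0.43) led. With the inhibitor Dox lowered 3 and raised 2 (median -0.09), near the 18.2% of all tested genes called. PEAK1 was at 0.43, VASP at -0.31 and GIT2 at 0.28.

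Of 20 tested integrin activators, adaptors and inhibitors, the inhibitor raised 7 and lowered 4 without Dox and raised 10 and lowered 5 with Dox (medians 0.03 and 0.19), against 38% and 32.1% of all tested genes called. The Dox counts below stand against 17.9% of all genes without and 18.2% with the inhibitor. The tensin gene TNS1, whose product ties beta tails to actin, rose from 8.11 to 29.2 FPKM (1.73, and 1.41 with Dox). The filamin gene FLNA rose by 0.86 with Dox, and DAB2, an adaptor for integrin endocytosis, fell by 1.13 without Dox. Dox lowered 4 and raised 1 (median -0.06), led by TNS1 (-0.45), FLNA (-0.41) and the kindlin gene FERMT1 (-0.41), and with the inhibitor raised 3 and lowered 3 (median 0.06), led by DAB2 (0.82) and TNS1 (-0.76). DAB2 was the 1 call for the interaction (0.5), where 2.82% of all tested genes were called.

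Of 11 tested hemidesmosome and tetraspanin partners, Dox raised 2 and lowered 3 without the inhibitor and lowered 2 with it (medians -0.0011 and -0.1), against 17.9% and 18.2% of all tested genes called. The hemidesmosome linker gene PLEC was at -0.44 and -0.23 and the urokinase receptor gene PLAUR at -0.36 and -0.5, while the tetraspanin gene CD63 rose by 0.43 without the inhibitor. The inhibitor raised 2 and lowered 2 without Dox and raised 2 and lowered 3 with it (medians 0.0054 and -0.06; all genes 38% and 32.1% called), with PLAUR at 0.65 and 0.51, TSPAN4 at -0.45 and -0.37, CD81 at 0.51 without Dox and CD63 at -0.36 with Dox. Of 9 tested laminin receptors that are not integrins, the inhibitor lowered 2 without Dox and raised 1 and lowered 1 with Dox (medians -0.1 and -0.08), against 38% and 32.1% of all tested genes called. BCAM, the receptor for laminin alpha 5, fell by 0.76 and 0.43, SDC1 fell by 0.27 without Dox and SDC2 rose by 0.29 with Dox. Dox lowered 1 without the inhibitor (SDC2, -0.19) and raised 1 with it (BCAM, 0.41), with medians of 0.03 and 0.07.

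The last list held TGF-beta genes, genes named as latent TGF-beta binding proteins (LTBP) and NRROS. Whether alpha v integrins act on the product of each was not tested. Of its 6 tested genes, Dox lowered 4 and raised 1 without the inhibitor (median -0.35) and lowered 3 with it (median -0.26). Of all tested genes, 17.9% and 18.2% were called for Dox. LTBP2 was at -0.91 and -0.88 and LTBP4 at -0.49 and -0.38, with NRROS at 0.44 without and LTBP3 at -0.38 with the inhibitor. The inhibitor raised 4 and lowered 1 without Dox (median 0.31) and raised 4 and lowered 2 with it (median 0.37). For the inhibitor 38% and 32.1% of all tested genes were called. LTBP2 rose by 1.0 and 1.03 and TGFB2 by 0.67 and 1.23, TGFB1 fell by 0.6 without Dox, and LTBP4 rose by 0.46 with Dox. Lists were described by counts and medians, and no test of a list was made.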

How the data were processed

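Poly(A) RNA of 12 HK-2 libraries (4 groups of 3) was extracted with TRIzol and prepared with the TruSeq Stranded mRNA kit, per the labels' protocols. The deposited table holds FPKM values rounded by the authors to 2 decimals. Trim Galore 0.6.7, Salmon 1.9.0 and GRCh38.p13 are named in the submitters' processing notes, while the sources used here give neither annotation nor strand setting nor how transcripts were summed to genes. Depth is unknown, so no counting interval is given.

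Groups follow the treatment labels. Genes with FPKM of at least 1 in at least 3 libraries (12649 of 26334) were fitted with limma 3.58.1 (R 4.3.3) on log2(FPKM + 1), with an intensity trend, 4 group means and 8 residual degrees of freedom. Values were not rescaled, and p-values were adjusted by Benjamini-Hochberg over all tested genes. The procedure was run on simulated data with noise drawn independently for each gene and library. Deviations shared between genes or libraries, such as those of replicate 1, were therefore not covered by it. Alternatives covered the pseudocount, filters, scaling, the groups fitted, a replicate block, a length and GC trend, and each library left out. Coordinates are GRCh38 (GENCODE v29). All members were accounted for, values in every library were given for those called, and the 3 called genes with the largest changes were named per list and comparison. Same-numbered libraries of the inhibitor groups without and with Dox deviated together (correlations 0.133 to 0.549, 3 pairs). Those of vehicle and inhibitor did so too (0.0974 to 0.686), as did those of vehicle and both agents (0.0649 to 0.475). The lowest value of each range was the pair of replicates 2, and some pairs of replicates 2 and 3 lay above it. The block is therefore also given as an alternative. The members and lists were chosen with earlier results of these data known. Some items counted in the totals are not reported here by name.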

Additional observations from a re-analysis of the deposited data

Results flagged for a closer look

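For 2 members described here the effect of Dox differed with and without the inhibitor by the interaction test (limma, Benjamini-Hochberg adjusted over all tested genes). The difference was -0.64 for LAMA1 (adjusted p = 0.00742) and 0.37 for ITGB3 (adjusted p = 0.0224). In ITGB3 it was called with all 12 libraries and lost without any one of 8 of them (0.35 to 0.39).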

How the results depend on the processing

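Some members, such as ITGAX, LAMA1 and ITGB4, were not tested with a mean FPKM of at least 5, and this was not counted as a loss. Of the calls of members, 10 of 10 for Dox and 4 of 10 for Dox with the inhibitor held under all alternatives in which the member was tested. So did 10 of 13 for the inhibitor, 12 of 16 for the inhibitor with Dox and 2 of 3 for the interaction. The 10 for Dox include ITGAX, which passed the filter through its Dox libraries. Median-ratio scaling moved the median of all genes for the inhibitor from -0.12 to -0.01. After quantile normalization, 43.3%, 41%, 49.7% and 50.3% of called genes were higher in the 4 comparisons. The cause of each change below was not tested, except where fewer genes or samples entered the fit.

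With a mean FPKM of at least 5, 1 member was higher for Dox, 1 lower for the inhibitor with Dox and 1 lower for the interaction, since fewer genes were tested. For Dox with the inhibitor, 1 member was higher after quantile normalization, and 1 with only the groups compared, where 1099 genes were called. With the length and GC trend removed, 11 members were lower for Dox. For Dox with the inhibitor 5 were higher and 12 lower (17 called), and for the interaction 2 were higher and 5 called (832 genes). In that setting ITGA6 (-0.15, limma adjusted p = 0.0496) and ITGAV (-0.16, adjusted p = 0.0252) turned to lower for Dox with the inhibitor.

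Deviations of libraries with the same replicate number correlated at -0.09 to 0.686 (18 pairs, median 0.115). Those with different numbers correlated at -0.594 to 0.244 (36 pairs, median -0.0764). Same-numbered correlations were positive in all pairs between vehicle and inhibitor (0.0974 to 0.686), vehicle and both agents (0.0649 to 0.475), and inhibitor and both agents (0.133 to 0.549). Replicates 2 and 3 were less distinct: vehicle 2 was at 0.0974 with inhibitor 2 and 0.244 with inhibitor 3. Pairs that held a library with Dox alone lay between -0.0904 and 0.198. The main fit did not pair the samples, and the block was an alternative for all comparisons. With the replicate number as a block, 3741 genes were called for Dox, 4548 for Dox with the inhibitor and 666 for the interaction, where 2 members were higher. Calls gained with the block, in other comparisons than Dox with the inhibitor, were ITGB5 and ITGB6 for Dox (limma adjusted p = 0.0177 and 8.64e-04), ITGAE, ITGB1 and ITGB8 for the inhibitor (0.0268, 0.00672 and 0.00236), ITGA5, ITGAE and ITGB5 for the inhibitor with Dox (0.0397, 0.0267 and 0.0292) and LAMB2 for the interaction (0.0279); the block ended no call of a member. With the block and the length and GC trend removed, 14 members were lower and 18 called for Dox (4192 genes). For Dox with the inhibitor 5 were higher and 11 lower (16 called), and for the interaction 4 higher and 4 lower (8 called, 1137 genes). There ITGB1 turned to lower for Dox (-0.14, limma adjusted p = 0.0444) and ITGAV for Dox with the inhibitor (-0.16, adjusted p = 0.00922).

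Leaving out 1 library at a time gave 1427 to 2665 genes called for Dox, 1121 to 2920 for Dox with the inhibitor and 186 to 420 for the interaction. For Dox with the inhibitor it gave 4 to 10 members called, 1 to 3 higher and 3 to 7 lower, and for the interaction 0 to 2 higher. Leaving out replicate 1 of all groups, chosen after seeing the data, gave 11, 9, 17, 17 and 3 members called in the 5 comparisons.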
